A study of Mus musculus with 6 samples.

Results

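The genes described here make, sense and move sterols and make fatty acids. They were chosen by symbol, as 34 genes in 5 branches: 7 of the mevalonate branch, 11 of the squalene to sterol branch, 6 regulators of sterol sensing, 6 of fatty acid synthesis and 4 of sterol efflux. A probeset paired with 1 symbol was found for 32 of them, out of 19938 genes with such a probeset in all, and Acat2 and Nr1h2 were not analysed here. The comparison was between mouse bone marrow cells given HLX, a homeobox transcription factor, and cells given an empty vector. In HLX cells the mean levels of Insig1, Fdft1 and Sqle were higher than in control cells and that of Elovl6 was lower. These differences were 1.23-fold to 1.53-fold, at an unadjusted p under 0.05. At that p stood 12.5% of the measured members, against 4.8% of all genes, and no member passed the test adjusted over all genes.

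The HLX group held 3 arrays of cells infected with a lentivirus written as pCAD-HLX-IRES-GFP in the sample labels and as pCAD-IRES-GFP-Hlx in the design text. The control group held 3 arrays of cells infected with pCAD-IRES-GFP. All cells came from young adult wild-type FVB/nJ marrow and were Lin-Kit+Sca-1+ when sorted, the fraction that holds blood stem cells and early progenitors. After infection with 8 µg/ml polybrene and 2 days in serum with mouse IL-3, IL-6 and SCF, GFP+ cells were sorted again, so both groups carried GFP and both had been cultured in serum and cytokines. The labels name neither separate mice nor separate cultures behind replicates 1 to 3, so a p-value here reflects the spread among 3 samples of a group, which may be technical.

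Cells build cholesterol from acetyl-CoA through mevalonate, isoprenoid diphosphates, squalene and a run of sterol intermediates. When sterol in the endoplasmic reticulum runs low, the escort protein encoded by Scap carries the membrane-bound transcription factors encoded by Srebf1 and Srebf2 to the Golgi, where proteases free their active parts. The proteins of Insig1 and Insig2 hold the complex back when sterol is plentiful. The product of Srebf2 acts mainly on sterol genes and the main product of Srebf1 on fatty acid genes, both usually together with the factor NF-Y bound nearby. When sterol is in excess, the oxysterol receptors encoded by Nr1h3 and Nr1h2 turn on the efflux pumps Abca1 and Abcg1. Dividing blood progenitors need sterols and fatty acids for new membranes.

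The promoters of the members are shown because most of those of the sterol branches share a box that the choice of genes did not use. RefSeq promoter windows (assembly GRCm38.p6, 250 bases before to 50 after each annotated start) matched 27 of the 34 members by symbol, with 36 windows in all, since 6 genes have several. Fdps, Fdft1, Sqle, Stard4, Scd1, Scd2 and Abcg1 had none. They were searched on both strands for CCAAT, the box bound by NF-Y, for TCACNCCAC, a form of the sterol regulatory element, and for CACNCCAC, the shorter core that every match of the longer form contains. The 250 bases before the start are given 5′ to 3′ on the strand of the gene for 5 members: Hmgcs1, which alone held the longer element, Mvk, which held the most CCAAT boxes, Sc5d and Insig1, which had the largest positive differences described below, and Elovl6, which had the largest negative one. Capitals mark the matches, where ATTGG is CCAAT read on the opposite strand.
Hmgcs1 (chr13:119690101-119690350, plus strand): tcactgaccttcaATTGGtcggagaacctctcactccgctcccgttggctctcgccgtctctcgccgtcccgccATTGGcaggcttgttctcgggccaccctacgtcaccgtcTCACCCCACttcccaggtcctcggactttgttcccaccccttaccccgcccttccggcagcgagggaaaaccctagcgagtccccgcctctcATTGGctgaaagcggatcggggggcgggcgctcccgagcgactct
Mvk (chr5:114444019-114444268, plus strand): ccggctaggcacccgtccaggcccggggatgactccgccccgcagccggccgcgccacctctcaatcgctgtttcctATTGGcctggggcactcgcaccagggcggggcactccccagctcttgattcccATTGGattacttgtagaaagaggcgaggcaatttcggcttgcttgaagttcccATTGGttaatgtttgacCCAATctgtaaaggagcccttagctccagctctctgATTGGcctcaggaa
Sc5d (chr9:42264301-42264550, minus strand): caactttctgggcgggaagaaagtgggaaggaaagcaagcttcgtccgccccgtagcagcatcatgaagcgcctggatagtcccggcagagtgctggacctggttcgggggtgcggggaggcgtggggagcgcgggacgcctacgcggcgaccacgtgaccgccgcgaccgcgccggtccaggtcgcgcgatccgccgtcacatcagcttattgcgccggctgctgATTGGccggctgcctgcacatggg
Insig1 (chr5:28071162-28071411, plus strand): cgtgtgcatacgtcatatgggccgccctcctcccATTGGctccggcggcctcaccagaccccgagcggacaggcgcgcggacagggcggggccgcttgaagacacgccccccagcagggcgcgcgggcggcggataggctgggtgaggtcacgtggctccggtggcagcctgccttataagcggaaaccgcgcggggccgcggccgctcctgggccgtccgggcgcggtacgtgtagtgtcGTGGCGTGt
Elovl6 (chr3:129532136-129532385, plus strand): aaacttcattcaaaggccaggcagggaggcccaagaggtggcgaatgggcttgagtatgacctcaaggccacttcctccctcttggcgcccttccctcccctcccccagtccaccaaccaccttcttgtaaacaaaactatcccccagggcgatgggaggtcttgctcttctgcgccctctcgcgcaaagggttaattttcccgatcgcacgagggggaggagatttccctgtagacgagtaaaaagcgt

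CCAAT was present in 14 of 15 sterol synthesis genes with a window, which is 9 of 9 in the squalene to sterol branch (11 genes) and 5 of 6 in the mevalonate branch. It was present in 4 of 5 regulators, 2 of 4 fatty acid genes and 0 of 3 efflux genes. Of all 27025 genes with a window, coding and noncoding, 41.1% held it in at least 1 window. Mvk held 5 matches, and Hmgcs1 and Nsdhl held 4 each. Of the 43 matches in member windows, 26 began within the 100 bases before the start. TCACNCCAC was present in Hmgcs1 alone (1 of 27 members), against 1.44% of all genes. CACNCCAC was present in Hmgcs1, Acat2 and Insig1, against 7.12% of all genes. Elovl6, Acaca, Scap and the efflux genes held none of these motifs in their windows, which says nothing of sites elsewhere.

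**Figure D1:**
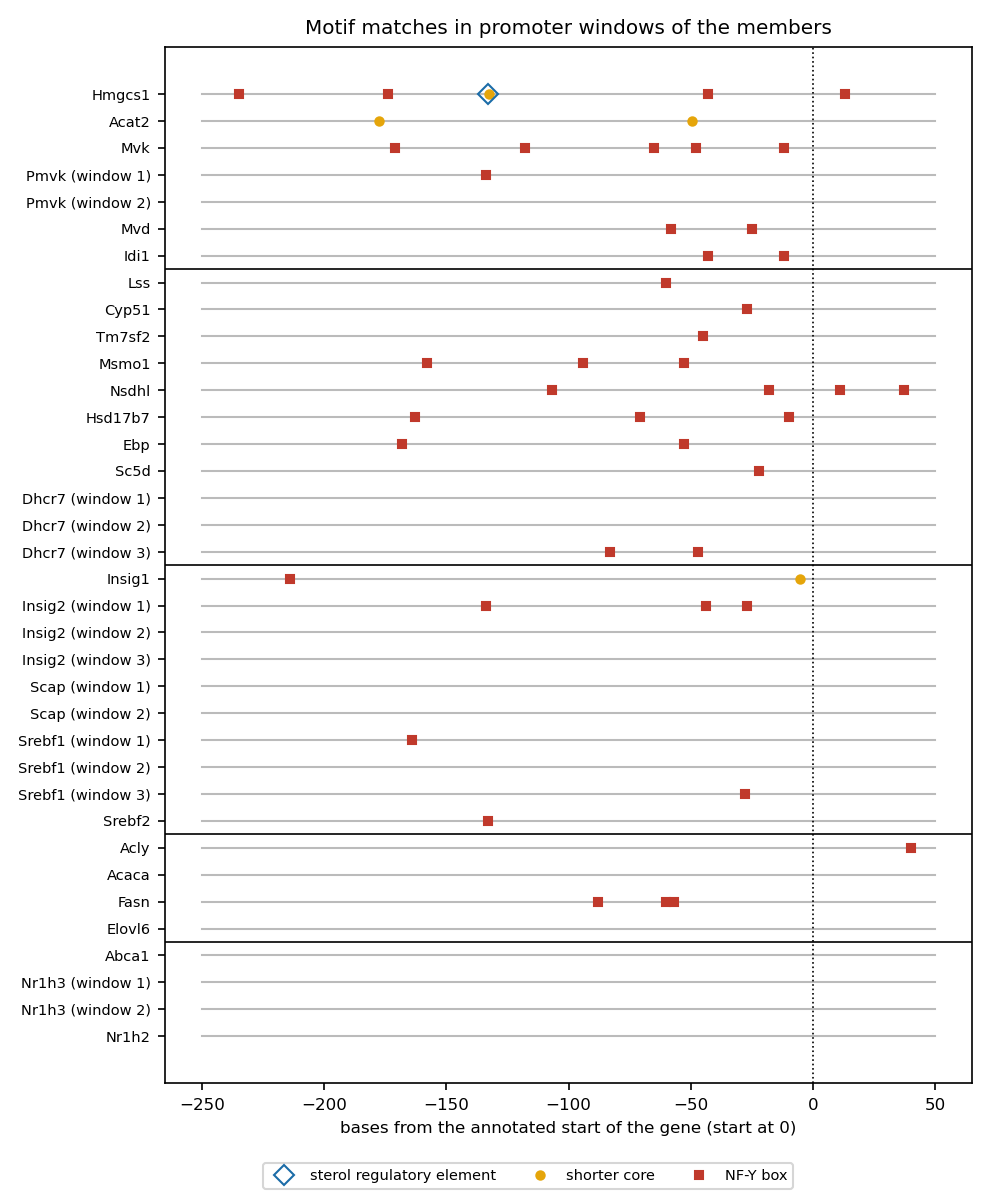
Matches of 3 motifs in the 36 promoter windows of 27 members (rows, grouped by branch with lines between groups), by distance in bases from the annotated start. Squares are matches of CCAAT, the diamond is the match of the sterol regulatory element in Hmgcs1 and circles are matches of its shorter core. Binding of NF-Y or any other factor was not measured. The 9 of 11 genes of the squalene to sterol branch that have a window carry a square in at least 1, and no efflux gene with a window does.

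The arrays were first checked against their labels. Hlx had log2 levels of 10.75, 9.74 and 10.28 with the HLX vector, against 6.99, 7.29 and 7.62 with the control vector (log2 difference 2.95, adjusted p from limma 0.0782). The markers Kit, Cd34, Cd48 and Ptprc of the sorted fraction lay above the median level of all probesets, and Ly6a, which encodes Sca-1, was not analysed here. Median log2 levels of the 6 arrays ran from 6.32 to 6.40. Over all 19938 genes 0 were called at an adjusted p under 0.05 by limma (0%), and 958 stood at an unadjusted p under 0.05 (4.8%). The median log2 difference of all genes was -0.0078.

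Of the 32 measured members, 3 were higher and 1 lower at an unadjusted p under 0.05, against 2.44% of all genes higher and 2.36% lower. That is 12.5% of the members, and without HLX replicate 2 it was 2 members, Insig1 and Elovl6. The groups did not overlap in 3 members, or 9.38%, near the 9.19% of all genes. Differences above 0 were found in 19 members (59.4%), against 47.5% of all genes. Among the 50 related genes described below 33 lay above 0 (66.0%). The smallest adjusted p of a member in limma was 0.901. The SD between replicates, on the log2 scale, had a median over the members of 0.22 in HLX arrays and 0.23 in control arrays. The 95% interval from limma lay inside a 2-fold difference either way for 27 of 32 members and inside 1.5-fold for 20. The 5 with wider intervals were Idi1, Msmo1, Hsd17b7, Sc5d and Elovl6. In bulk RNA of sorted cells, fewer cells of a type and less RNA per cell cannot be told apart.

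**Figure D2:**
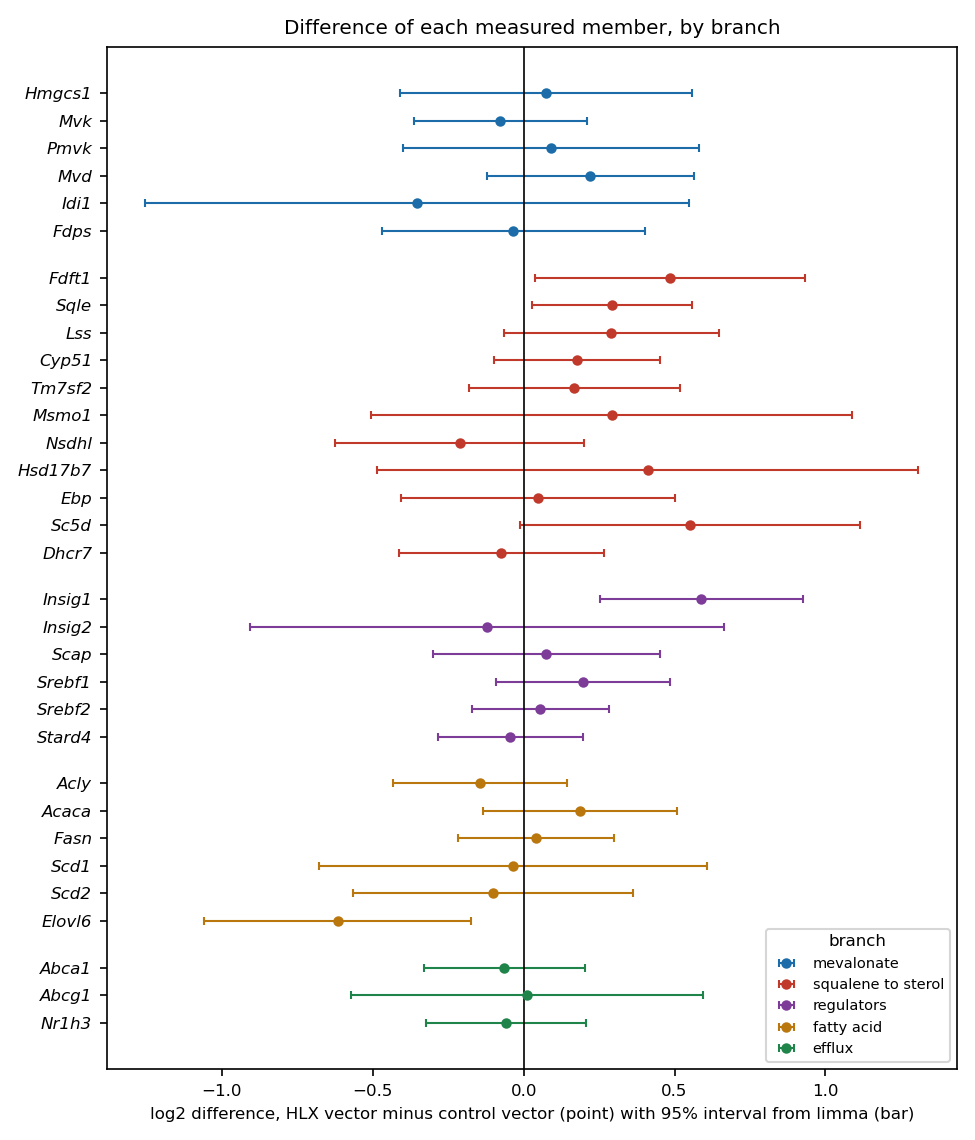
Log2 difference of each of the 32 measured members, HLX vector minus control vector (points), with the 95% interval from limma (bars), grouped and coloured by branch. The intervals of Fdft1, Sqle, Insig1 and Elovl6 exclude 0 before adjustment. Of the squalene to sterol branch 9 of 11 points lie above 0, against 47.5% of all genes.

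The mevalonate branch, from acetyl-CoA to farnesyl diphosphate, showed no common direction. Of its 6 measured genes 3 lay above 0 and 3 below (median log2 difference 0.020), and 0 reached an unadjusted p under 0.05. Mvd, which decarboxylates mevalonate diphosphate, had log2 levels of 7.42, 7.58 and 7.51 in HLX arrays and 7.29, 7.55 and 7.01 in control arrays. Control replicate 3 was the lowest and the groups overlapped (0.22 ± 0.15, moderated SE). Without control replicate 2 the difference of Mvd was 0.36, at an unadjusted p from limma of 0.0337. Without control replicate 3 it was 0.085, at an unadjusted p from limma of 0.538. Of 14 alternatives tried for Mvd, 1 gave an unadjusted p under 0.05.

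Idi1, the isomerase that makes dimethylallyl diphosphate, had log2 levels of 8.76, 8.80 and 7.39 in HLX arrays and 8.99, 8.74 and 8.27 in control arrays (-0.35 ± 0.38). HLX replicate 3 stood below all others, and without it the difference was 0.11. A dimmer probeset paired with Idi1 was at 7.84, 8.13 and 6.45 in HLX arrays and 8.20, 8.12 and 7.43 in control arrays. The genomic place of the Idi1 and Acaca probesets was not known here, and a processed copy of either gene could be measured. Hmgcs1, which makes the substrate of the rate-limiting step, was at 9.41, 8.91 and 8.91 in HLX arrays and between 8.67 and 9.34 in control arrays (0.073 ± 0.21). Its highest array in each group was replicate 1, and the groups overlapped almost entirely. Mvk and Pmvk, the kinases of the pathway, differed by -0.077 ± 0.12 and 0.090 ± 0.21. Fdps, the farnesyl diphosphate synthase, differed by -0.034 ± 0.19.

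In the squalene to sterol branch 9 of 11 genes lay above 0 (81.8%, against 47.5% of all genes), with a median log2 difference of 0.29. At an unadjusted p under 0.05, 2 were higher (18.2%), against 2.44% of all genes. The median ran from 0.14 without control replicate 3 to 0.27 without control replicate 1. Fdft1, the squalene synthase that commits farnesyl diphosphate to sterols, had log2 levels of 9.11, 8.79 and 8.65 in HLX arrays and 8.74, 8.16 and 8.19 in control arrays. Control replicate 1 overlapped the HLX arrays and the other control arrays lay below them. Fdft1 was 1.40-fold higher with HLX (log2 difference 0.49 ± 0.19, unadjusted p from limma 0.0373). Its dimmer probeset gave 0.39 ± 0.23, with 8.10, 7.74 and 7.25 in HLX arrays and 7.62, 7.19 and 7.12 in control arrays.

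Sqle, the squalene epoxidase and a rate-controlling enzyme of the later steps, had log2 levels of 9.18, 9.18 and 8.89 in HLX arrays and 8.75, 8.75 and 8.87 in control arrays. The groups did not overlap, by a gap of 0.023 between HLX replicate 3 and control replicate 3. Sqle was 1.23-fold higher with HLX (0.29 ± 0.11, unadjusted p from limma 0.0351). Sc5d, the desaturase that acts near the end of the pathway, had 8.06, 8.73 and 8.29 in HLX arrays and 8.27, 7.53 and 7.62 in control arrays. HLX replicate 2 was the highest, and control replicate 1 lay above HLX replicate 1 (0.55 ± 0.24, unadjusted p from limma 0.0538). Its single CCAAT match began 24 bases before the start, as shown above.

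Lss, which folds squalene epoxide into lanosterol, was at 6.83, 6.91 and 6.94 in HLX arrays and 6.57, 6.33 and 6.91 in control arrays (0.29 ± 0.15). The HLX arrays were close together and control replicate 3 lay among them. Cyp51, which removes a methyl group from lanosterol, differed by 0.18 ± 0.12 and Tm7sf2, a sterol reductase, by 0.17 ± 0.15. Single arrays set the values of Msmo1 and Hsd17b7. Msmo1, a sterol methyl oxidase, was at 8.51, 8.51 and 8.25 in HLX arrays and 8.71, 8.40 and 7.27 in control arrays (0.29 ± 0.34), and without control replicate 3 its difference was -0.14. Hsd17b7, a sterol ketoreductase, was at 8.76, 7.33 and 7.28 in HLX arrays and 7.65, 7.29 and 7.20 in control arrays (0.41 ± 0.38), and without HLX replicate 1 it was -0.074. The remaining genes were near 0 or below it: Ebp, the sterol isomerase, at 0.047 ± 0.19, Dhcr7, the reductase of the last step, at -0.074 ± 0.15, and Nsdhl, a dehydrogenase of sterol demethylation, at -0.21 ± 0.18.

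Among the regulators, Insig1 had the largest difference upward of all 32 members. Insig1 had log2 levels of 8.76, 8.41 and 8.34 in HLX arrays and 7.98, 8.03 and 7.73 in control arrays. The lowest HLX array lay 0.31 above the highest control array. Insig1 was 1.50-fold higher with HLX (0.59 ± 0.14, 95% interval 1.19-fold to 1.90-fold), at an unadjusted p from limma of 0.00417 and an adjusted p of 0.901. Insig1 is itself a known target of the SREBP factors. Its promoter window, shown above, held 1 CCAAT from base -216 and 1 shorter core from base -9. Of all genes with a window 41.1% held CCAAT and 7.12% the shorter core. The part of these matches in the difference of Insig1 was not tested. Its difference ran from 0.46 to 0.67 over the 14 alternatives tried, at an unadjusted p under 0.05 in all 14.

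Insig2, the paralog that also retains the complex, overlapped between the vectors. It had 7.46, 8.23 and 8.71 in HLX arrays and 7.85, 8.23 and 8.68 in control arrays (-0.12 ± 0.33). In both vectors the array numbered 1 was the lowest and the array numbered 3 the highest, and the spread within a group exceeded the difference between groups. Srebf1 had 7.48, 7.48 and 7.79 in HLX arrays and 7.36, 7.28 and 7.52 in control arrays (0.20 ± 0.12). The groups overlapped only through control replicate 3. Srebf2 had 8.78, 8.57 and 8.66 in HLX arrays and 8.57, 8.63 and 8.65 in control arrays. Its difference was 0.056 ± 0.097, with a 95% interval of 0.89-fold to 1.22-fold. Scap differed by 0.075 ± 0.16 and Stard4, a carrier of sterol between membranes, by -0.044 ± 0.10. The levels here are of transcripts, and the cleavage that activates the SREBP proteins was not measured. The branch had 4 of 6 genes above 0 (66.7%, against 47.5% of all genes). Its median was 0.066, which ran from 0.025 without HLX replicate 3 to 0.18 without HLX replicate 1.

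**Figure D3:**
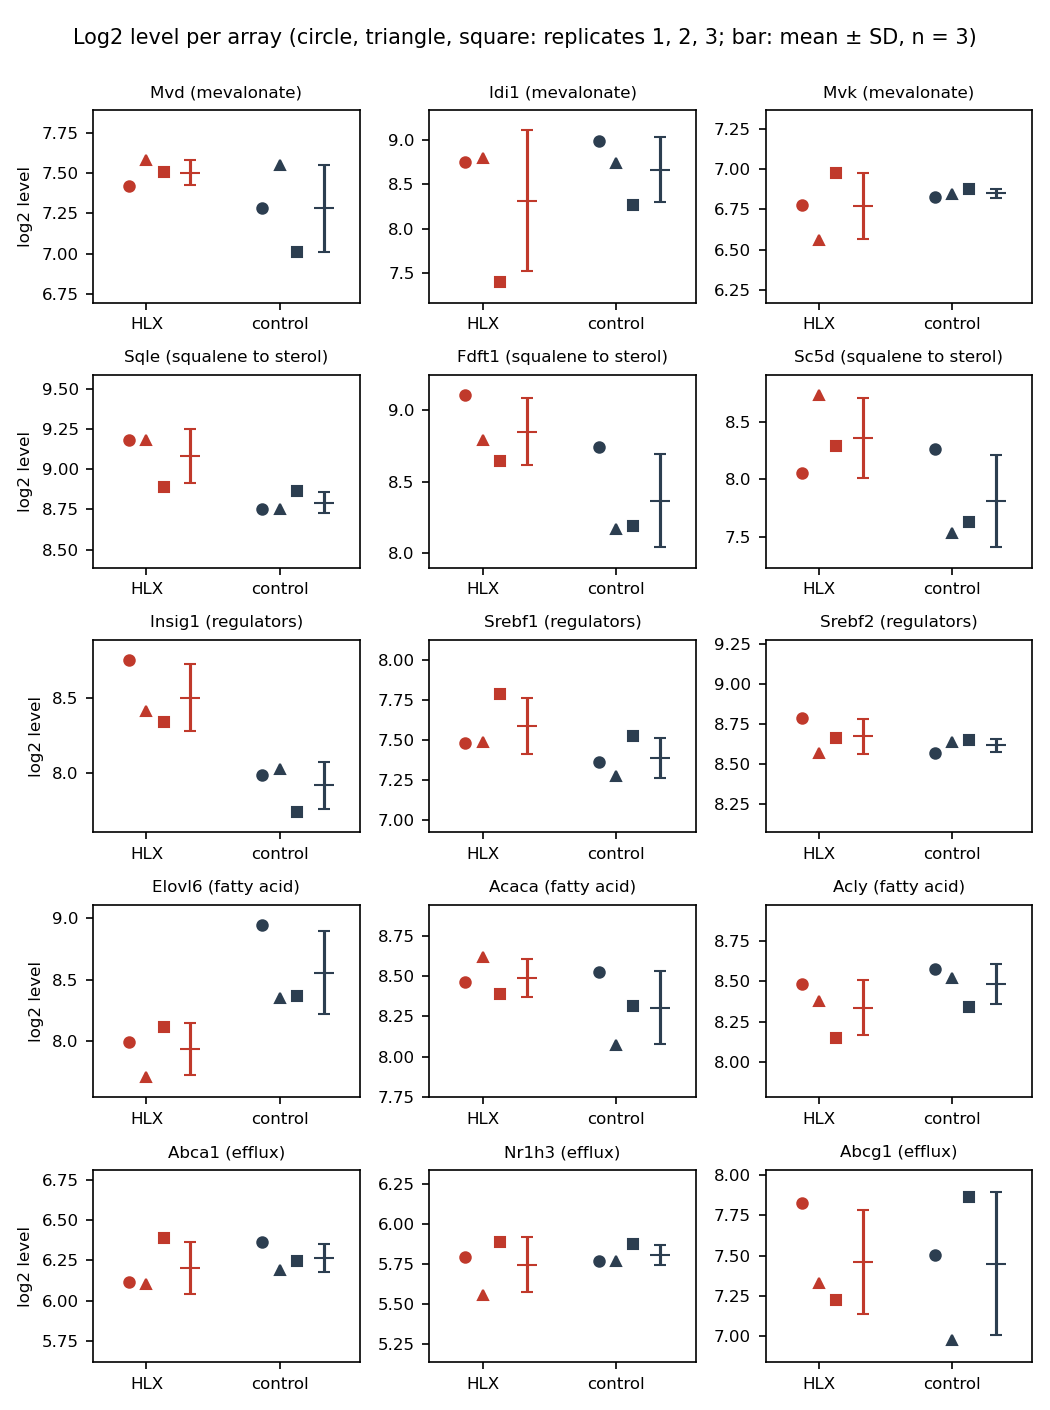
Log2 level on each array for the 3 members of each branch with the smallest p (rows: mevalonate, squalene to sterol, regulators, fatty acid, efflux), HLX arrays left and control arrays right, with the mean and SD (n = 3) beside them. The HLX and control arrays of Sqle, Insig1 and Elovl6 do not overlap, and those of the remaining 12 genes do. Over all 32 measured members 9.38% do not overlap, against 9.19% of all genes.

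In the fatty acid branch 2 of 6 genes lay above 0 (33.3%, against 47.5% of all genes), with a median difference of -0.068. At an unadjusted p under 0.05, 1 was lower, against 2.36% of all genes. Without HLX replicate 3 that median was 0.092 and without control replicate 1 it was 0.073. Elovl6, which extends palmitate and related fatty acids, had log2 levels of 7.99, 7.71 and 8.12 in HLX arrays and 8.95, 8.36 and 8.37 in control arrays. Every HLX array lay below every control array, by at least 0.24, and control replicate 1 was the highest. Elovl6 was 1.53-fold lower with HLX (-0.62 ± 0.19, unadjusted p from limma 0.0130, adjusted p 0.932). Without control replicate 1 its difference was -0.42.

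The enzymes before elongation showed smaller differences. Acly, which makes cytosolic acetyl-CoA from citrate, had 8.49, 8.38 and 8.15 in HLX arrays and 8.58, 8.52 and 8.34 in control arrays (-0.14 ± 0.12). Acaca, the carboxylase that makes malonyl-CoA, had 8.46, 8.62 and 8.39 in HLX arrays and 8.53, 8.07 and 8.32 in control arrays (0.19 ± 0.14), and its dimmer probeset gave 0.070 ± 0.23. Both genes overlapped between groups. Fasn, the fatty acid synthase, had 8.44, 8.40 and 8.18 in HLX arrays and 8.36, 8.18 and 8.34 in control arrays (0.042 ± 0.11, 95% interval 0.86-fold to 1.23-fold). The stearoyl-CoA desaturases differed little. Scd2 had 9.01, 8.97 and 8.50 in HLX arrays and 9.28, 8.83 and 8.68 in control arrays (-0.10 ± 0.20). Scd1 had 5.60, 4.91 and 4.77 in HLX arrays and 5.42, 5.32 and 4.64 in control arrays (-0.034 ± 0.27). Scd1 was 1 of 3 members below the median level of all probesets, with Abca1 and Nr1h3, where RMA compresses differences.

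In the efflux branch 0 of 3 measured genes reached an unadjusted p under 0.05, and the median difference was -0.058. Abca1, the pump that loads sterol onto apolipoprotein, had log2 levels of 6.12, 6.10 and 6.39 in HLX arrays and 6.36, 6.19 and 6.25 in control arrays (-0.064 ± 0.11). Abcg1, which passes sterol to lipoprotein particles, had 7.83, 7.33 and 7.22 in HLX arrays and 7.51, 6.98 and 7.86 in control arrays (0.012 ± 0.25). The highest array of Abcg1 was control replicate 3 and the lowest control replicate 2, so the HLX arrays lay inside the control range. Nr1h3, an oxysterol receptor, had 5.79, 5.56 and 5.89 in HLX arrays and 5.77, 5.77 and 5.88 in control arrays (-0.058 ± 0.11). Their 95% intervals lay inside a 2-fold difference for all 3 genes.

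The members varied between arrays of the same vector as well as between vectors. HLX replicate 1 was the highest of the 6 arrays for 10 of 32 members and the lowest for 2. Control replicates 2 and 3 were each the lowest for 8 members. For the squalene to sterol branch, the median deviation from a gene's mean over all arrays was 0.12, 0.19 and -0.028 in HLX replicates 1, 2 and 3, against -0.0049, -0.080 and -0.14 in control replicates 1, 2 and 3. HLX replicate 3 therefore lay within the range of the control arrays for this branch, and HLX replicates 1 and 2 above it. For the fatty acid branch, control replicate 1 was the highest array, with a median deviation of 0.24, and HLX replicate 3 the lowest, at -0.20.

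**Figure D4:**
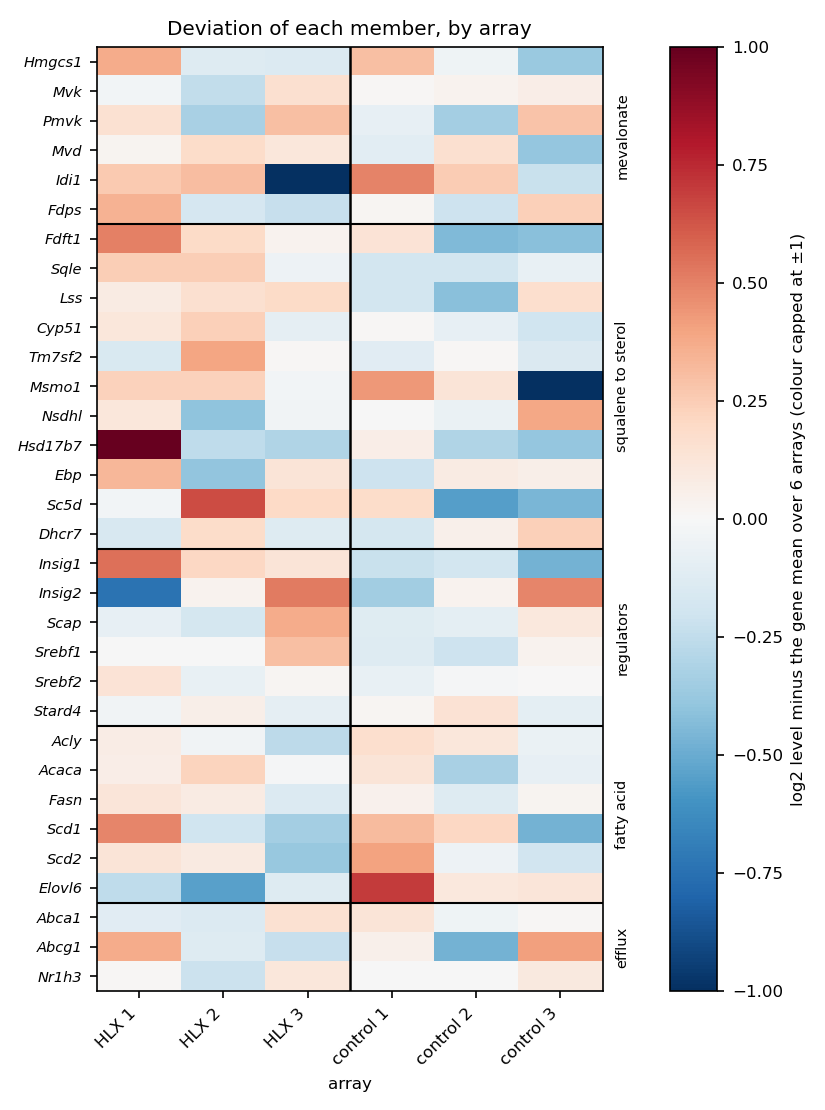
Log2 level of each of the 32 measured members (rows, grouped by branch) on each array (columns, HLX arrays left of the line and control arrays right of it), minus the gene's mean over the 6 arrays, as colour capped at ±1. Insig1 is red in all HLX arrays and blue in all control arrays, while Idi1, Msmo1 and Hsd17b7 each have 1 array that stands far from the rest.

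Related genes outside the 34 were counted in 5 further lists, 50 measured genes in all, of which 3 were higher and 1 lower at an unadjusted p under 0.05, against 2.44% of all genes higher and 2.36% lower, and 0 were called after adjustment. In lists of 6 to 18 genes, single genes at that p are read against the same shares. Differences above 0 were found in 33 of the 50 (66.0%), against 47.5% of all genes. These were 8 of 9 in sterol transport and storage, 8 of 9 in receptor targets and uptake and 5 of 8 in SREBP processing. In the fatty acid list they were 9 of 18, and in the isoprenoid list 3 of 6. In the list of fatty acid activation, elongation and desaturation 1 of 18 was higher and 1 lower at an unadjusted p under 0.05. Elovl1, the elongase of very long saturated chains, had log2 levels of 10.38, 10.53 and 10.50 in HLX arrays and 9.94, 9.81 and 10.13 in control arrays. All HLX arrays lay above all control arrays (0.51 ± 0.11, unadjusted p from limma 0.00244, adjusted p 0.859), while Elovl6 of the same family was at -0.62. Acsl4, which activates arachidonic acid, had 8.68, 8.47 and 8.05 in HLX arrays and 8.89, 8.68 and 8.81 in control arrays (-0.40 ± 0.17). HLX replicate 1 lay just above the lowest control array of Acsl4, and the other HLX arrays below all control arrays.

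Among genes of SREBP processing and turnover 1 of 8 was higher at an unadjusted p under 0.05. Rnf145, a ubiquitin ligase that acts on sterol-regulated proteins of the endoplasmic reticulum, had 8.18, 8.58 and 8.38 in HLX arrays and 7.93, 7.62 and 8.04 in control arrays (0.52 ± 0.15). In sterol transport and storage 1 of 9 was higher at that p. Gramd1b, which carries sterol from the plasma membrane to the endoplasmic reticulum, had 7.86, 7.88 and 8.06 in HLX arrays and 7.69, 7.39 and 7.25 in control arrays (0.49 ± 0.13). Neither gene overlapped between the vectors, and their adjusted p from limma were 0.932 and 0.901. Of the 50 related genes 3 were higher and 1 lower without overlap (8.0%), against 9.19% of all genes. Osbp, an oxysterol-binding lipid exchanger, differed by 0.33 ± 0.15 with overlap. The isoprenoid side branches had 0 of 6 genes at that p, with Pggt1b, a prenyltransferase subunit, at 0.46 ± 0.20 and Dhdds, which acts in dolichol synthesis, at -0.36 ± 0.19. The receptor target and uptake list had 0 of 9 at that p, all between -0.11 and 0.070.

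Of 5 macrophage markers 2, Csf1r and Cd68, were higher at an unadjusted p under 0.05, against 2.44% of all genes. The adjusted test was passed by 0 of them. The summed log2 level of the 5 was 31.6 to 34.7 in HLX arrays and 30.4 to 31.3 in control arrays. Csf1r weighed most in that sum, with a range over the 6 arrays of 2.64, against 0.96 for Cd68, the next widest. Csf1r had 6.49, 7.80 and 8.92 in HLX arrays and 6.28, 6.48 and 6.37 in control arrays (1.36 ± 0.53, unadjusted p from limma 0.0351). Cd68 had 9.91, 9.52 and 9.53 in HLX arrays and 9.17, 8.95 and 9.33 in control arrays (0.51 ± 0.15, adjusted p from limma 0.932). Csf1r was highest in HLX replicate 3 and Cd68 in HLX replicate 1. Adgre1 (0.32 ± 0.18) and Marco (0.14 ± 0.15) overlapped between the vectors, Mrc1 was lower in every HLX array than in every control array (-0.14 ± 0.090), and all 3 lay below the median level of all probesets. Whether macrophages had a part in the differences of the sterol genes was not tested. Adipocyte markers, which would come with marrow fat, summed to 26.4 to 27.0 in HLX arrays and 26.7 to 27.3 in control arrays, and Adipoq, Fabp4, Lep and Cidec lay below the median level. No T cell, B cell, granulocyte or erythroid marker reached an unadjusted p under 0.05 in limma. Some of these markers were lower in every HLX array than in every control array. They were Ly6g, Camp and Ltf (3 of 5 granulocyte markers), Cd8a (1 of 4 T cell markers) and Klf1 (1 of 3 erythroid markers). Over all genes 967 of 19938 were lower in this way. The gaps between the groups were small, from 0.0031 for Ltf to 0.048 for Camp. The remaining granulocyte markers, S100a8 (0.071 ± 0.14) and S100a9 (0.17 ± 0.19), lay above 0 with overlap. Of the 5 granulocyte markers 0 lay above the median level of all probesets. All 3 erythroid markers lay below 0, and their summed log2 level was 18.7 to 19.3 in HLX arrays and 19.2 to 19.6 in control arrays. The summed levels of the T cell, B cell and granulocyte lists overlapped. The part of these cells in the sterol gene differences was not tested either.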

How the data were processed

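The authors deposited log2 expression levels. Per the submitters' processing notes, they came from Affymetrix Power Tools and RMA. The scale follows from the range of values. RMA makes arrays alike in distribution and compresses weak signals. The probe build is not given in the sources used. RNA of 5000 to 10000 sorted cells was amplified from 3 ng, per the labels' protocols. Of 35556 probesets 21789 had 1 symbol, 1621 several and 12146 none listed. The brightest by mean over 6 arrays stood for each of 19938 genes, with no filter on dim ones.

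HLX was compared with control vector in limma 3.58.1 (lmFit, eBayes, R 4.3.3) with 2-sided p-values, adjusted by Benjamini-Hochberg over all genes at 0.05. The ± beside a log2 difference is the moderated SE. Lists were described by counts and medians. The code was tested on simulated data. All members may be named, with per-array values for the 3 of each branch with the smallest p, for fixed regulators, lipogenic and efflux genes, and, chosen after their values were seen, for Hmgcs1, Lss, Msmo1 and Hsd17b7. From each related list at most 3 genes with the smallest p are named. Members, lists and tests were chosen with earlier results of these data known. No block was used, because the labels do not say that a number marks a shared mouse, culture or day. Deviations from the group means correlated at r = 0.20, 0.0090 and 0.14 for arrays of the same number. For arrays of unlike number r ran from -0.225 to 0.105. With 3 arrays a group, precision is limited. Figures used matplotlib 3.10.9 in Python 3.11.15.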

Additional observations from a re-analysis of the deposited data

How the results depend on the processing

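No member had an adjusted p under 0.05 in limma in any of the 14 alternatives (smallest 0.683). Over all genes the count called was 0 except with a trended and robust prior, where it was 1. The replicate block left 3 members at an unadjusted p under 0.05, which were Fdft1, Insig1 and Elovl6 (9.38%, against 6.04% of all genes). It changed no adjusted call. HLX replicates 1 and 3 correlated best with the control array of their own number, and HLX replicate 2 did not. Leaving out 1 array gave 2 to 4 members at an unadjusted p under 0.05 (6.25% to 12.5%), against 4.04% to 6.36% of all genes. It gave 4 to 8 members without overlap (12.5% to 25.0%), against 16.7% to 24.1% of all genes, where fewer arrays overlap less often. Without both arrays numbered 1, chosen after the data were seen, 7 members (21.9%) did not overlap, against 31.2% of all genes. With 1 array left out, branch medians ran from 0.14 to 0.27 for squalene to sterol, 0.025 to 0.18 for regulators and -0.22 to 0.092 for fatty acid genes. Insig1 and Elovl6 stayed at an unadjusted p under 0.05 in all 14 alternatives, Fdft1 in 9 and Sqle in 7, and 13 of 32 members never changed sign.

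With array weights the log2 difference was 0.045 for Fdps, -0.00030 for Scap, 0.13 for Scd1 and 0.011 for Scd2, each the opposite sign. Without both arrays numbered 1 it was -0.20 for Ebp, 0.015 for Insig2, -0.025 for Srebf2, 0.026 for Abca1 and -0.14 for Abcg1. With 1 array left out, members that changed sign ran from -0.094 to 0.24 (Hmgcs1), -0.18 to 0.028 (Mvk), -0.056 to 0.27 (Pmvk), -0.59 to 0.11 (Idi1), -0.22 to 0.078 (Fdps), -0.14 to 0.58 (Msmo1), -0.074 to 0.67 (Hsd17b7), -0.11 to 0.26 (Ebp), -0.18 to 0.025 (Dhcr7), -0.41 to 0.22 (Insig2), -0.092 to 0.18 (Scap), -0.00042 to 0.11 (Srebf2), -0.10 to 0.019 (Stard4), -0.014 to 0.12 (Fasn), -0.28 to 0.13 (Scd1), -0.22 to 0.072 (Scd2), -0.22 to 0.22 (Abcg1) and -0.13 to 0.035 (Nr1h3). The causes were not tested.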
